A study of Homo sapiens with 2 samples.

Results

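RNA bisulfite sequencing was examined at the exonic cytosines that are followed, in the direction of the RNA, by T, C, C and A, which together with the cytosine itself form the motif CTCCA. A member was any nuclear cytosine with at least 10 counts on an exon of a GENCODE release 44 basic transcript of the same strand, with the 4 following letters read from the hg19 genome. The letters are written as DNA, so T stands for U. There were 9834 members among 1580917 exonic cytosines in MCF10A and 7737 among 1268699 in MDA-MB-468. Over both lines 12739 of 2039213 exonic cytosines were members, and 4832 of them had at least 10 counts in each line.

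NSUN6 is an RNA cytosine methyltransferase that was first described at the acceptor end of cysteine and threonine transfer RNAs. It has since been linked to cytosines of messenger RNAs in a CTCCA context, mainly in unpaired loops, where a lone cytosine carries the mark. NSUN2, the other main source of 5-methylcytosine (m5C) in messenger RNA, works in a different, G-rich context. Bisulfite turns unmethylated cytosine into uracil, so a read that still shows cytosine counts as unconverted. Paired cytosines can also escape the reaction, and then several neighbouring cytosines of a read tend to stay unconverted together.

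MCF10A is an immortalised, non-tumorigenic human mammary epithelial line and MDA-MB-468 is a human breast adenocarcinoma line. Both came from a cell repository, received no further treatment and were represented by 1 library each. The labels name DMEM for both, whereas the methods give DMEM/F12 with horse serum, EGF, hydrocortisone and insulin for MCF10A but RPMI with fetal bovine serum for MDA-MB-468, so line and medium cannot be told apart. There were no replicates, so every test below compares the reads of 2 libraries or of cytosines within a library, not the cell lines. PCR reads carry no molecular identifiers and neighbouring cytosines share reads, and all intervals (95% Wilson) cover counting error only.

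The exonic tables of MCF10A and MDA-MB-468 held 60347403 and 42058400 counts, and the median member had a coverage of 18 in each line. The labels were checked on genes known to differ between the lines: CDKN2A, lost in MCF10A, had 0 listed cytosines there and 241 in MDA-MB-468, RB1 and SMAD4 had 0 in MDA-MB-468, and EGFR, amplified in MDA-MB-468, had 153664 counts against 16925. The epithelial keratin genes KRT8 and KRT18 were covered in both lines, whereas the epithelial adhesion genes CDH1 and EPCAM were nearly absent from MCF10A, at 6 and 1 listed cytosines. Among the basal markers, KRT5 and KRT17 were covered in both lines, KRT14 was listed at 31 and 0 cytosines, and TP63 was at 0 in both. The leukocyte marker PTPRC was at 0 in both lines and the fibroblast marker COL1A1 was listed at 49 and 568 cytosines.

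The members that carry the results are shown as 29-base windows of the hg19 genome, 5′ to 3′ in the direction of the RNA, with the motif in capitals and its first letter the measured cytosine. The first set holds cytosines that stood alone as unconverted within their surroundings.
RPSA: cagtgttatatcCTCCAggaatactggcc
RPSAP6: cagtgttatatcCTCCAggaatattggcc
NECTIN2: ggccctctgcatCTCCAaagagggccgcc
FURIN: aggaggccacctCTCCAagggcttctgca
IGFBP6: ccctgccagggtCTCCAgatggcaatgga
BAG6: cccggcccactcCTCCAcaggctcggcct
KRT4: cttcagctcagtCTCCAtgtctggaggtg

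The second set holds members whose neighbours were unconverted as well, shown for a ratio of 100% in both lines on counts of doubtful strand (TALAM1) and for a ratio that differed between the lines (SEC61G).
TALAM1: aacttctatcttCTCCAaattgtttcatc
SEC61G: gtttgtaaaggaCTCCAttcggctggtta

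As a class, the members were no less converted than other exonic cytosines. In MCF10A 6872 of 383090 counts were unconverted (1.79%, 1.75 to 1.84), against 1.95% (1.94 to 1.95) at all other exonic cytosines. The same shares in MDA-MB-468 were 1.48% (1.43 to 1.53) and 1.77% (1.76 to 1.77). In both lines the members lay 0.15 and 0.29 percentage points below the rest, and 66.8% and 73.5% of them had no unconverted count at all, near the 64.7% and 69.7% of the other cytosines. When all 5-letter contexts that start with C were ordered from the highest unconverted share, the motif stood at place 124 (MCF10A) and 169 (MDA-MB-468). The median context had 1.78% and 1.58%. The motifs with C, G or T in place of the last A had shares of 1.8%, 1.74% and 1.51% in MCF10A, and of 1.66%, 1.46% and 1.28% in the other line, on either side of the members.

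A site was called m5C when its unconverted share exceeded the overall share of the library in a one-sided Fisher's exact test at an adjusted p (Benjamini-Hochberg over all kept sites) under 0.05. The paper made its calls after leaving out sites in predicted RNA structure, as likely false positives. That filter was not applied to the calls here, so they are not the calls of the paper. The overall share of MCF10A was 1.99% and that of MDA-MB-468 1.81%. At a coverage of 10 at least 4 unconverted counts were needed in either line and at a coverage of 100 at least 9. Of the members, 67 were called in MCF10A (0.681%, 0.537 to 0.864) where 0.851% of all exonic cytosines were called, and 38 in MDA-MB-468 (0.491%, 0.358 to 0.673) where the share of all was 0.742%. The members were thus called no more often than exonic cytosines in general, at place 72 and 93 among all contexts. Without members of a predicted pairing probability over 0.5, 24 of the 67 calls and 11 of the 38 were left. This cut also took out 59.0% and 61.3% of all members, and 0.595% and 0.367% of the remaining members were called. At the edge of the call in MCF10A stood LPCAT1 with 4 of 19 unconverted counts (Fisher's exact test, adjusted p = 0.04998, just inside) and CD164 with 4 of 20 (0.0601, just outside), and in MDA-MB-468 RARS1 with 5 of 32 (0.0326) and TUBB with 4 of 22 (0.0694). By coverage, the members were below the other cytosines in the 3 lower classes and above them in the highest. In MCF10A they were called at 0.495% against 0.685% (10 to 19 counts), 0.707% against 0.903% (20 to 49) and 0.870% against 1.26% (50 to 99), and in MDA-MB-468 at 0.230% against 0.556%, 0.566% against 0.845% and 0.820% against 1.10%. At 100 counts or more, 11 of 463 were called in MCF10A (2.38%, 1.33 to 4.20, against 1.64%) and 9 of 314 in MDA-MB-468 (2.87%, 1.52 to 5.36, against 1.67%). The intervals of this highest class include the values of the other cytosines, so no turn with depth was shown.

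The called members differed in what surrounded them, and were split by whether another called cytosine lay within 10 nt. In MCF10A 18 of the 67 had none (26.9%), where 13.7% of the called cytosines outside the motif had none, and in MDA-MB-468 6 of the 38 (15.8%, against 13.2%). Counted over all sites, such lone calls made up 0.183% of the members in MCF10A (0.116 to 0.289) and 0.117% (0.111 to 0.122) of the other cytosines. The shares in MDA-MB-468 were 0.0775% (0.0355 to 0.169) and 0.0983%. The share of the other cytosines lay inside the interval of the members in both lines, close to its lower end in MCF10A. By lone calls the motif stood at place 36 of all contexts in MCF10A, at place 97 in MDA-MB-468. The motifs ending in C, G or T held 6, 4 and 5 lone calls in MCF10A (places 163, 143 and 183), and 3, 2 and 3 in MDA-MB-468.

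**Figure D1:**
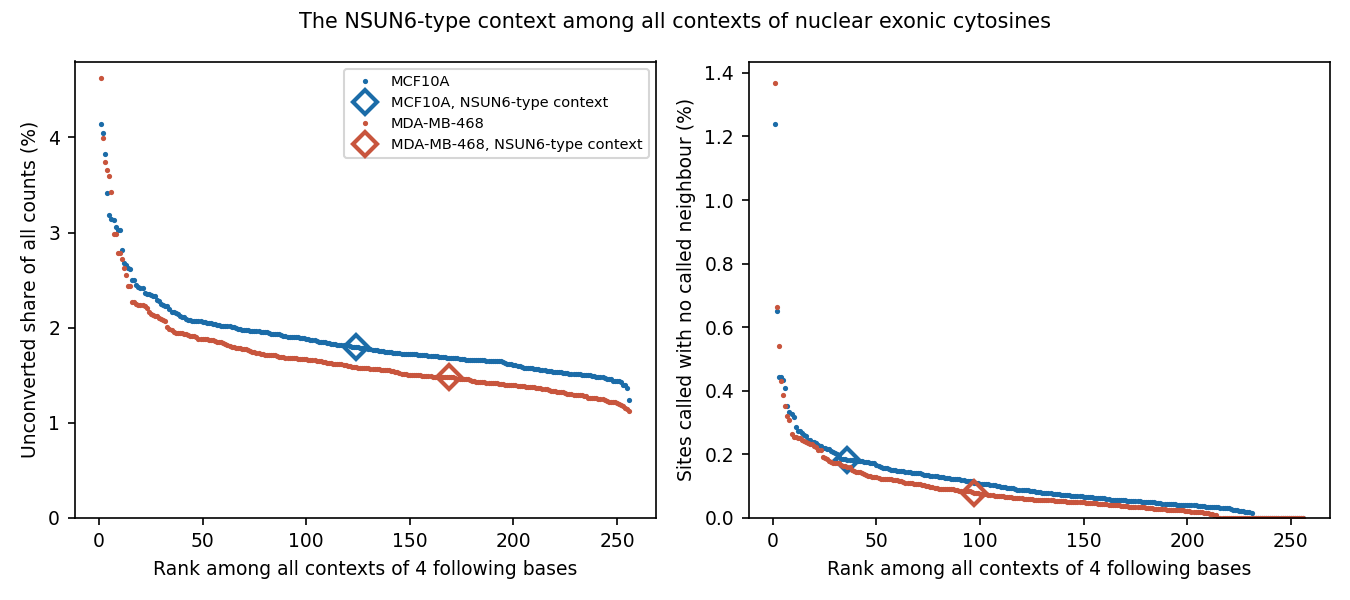
All contexts of an exonic cytosine and its 4 following bases, ordered from high to low in each line, by the unconverted share of all counts (left, %) and by the share of sites called with no other called cytosine within 10 nt (right, %). Each dot is a context and the diamonds mark the NSUN6-type context, which lies at 1.79% and 1.48% in the left panel and at 0.183% (MCF10A) and 0.0775% (MDA-MB-468) in the right one.

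Summed over the 18 in MCF10A, 26.8% of counts were unconverted at the cytosine itself (24.5 to 29.2), 1.84% at the cytosine at +2 and 1.68% at the cytosine at +3, which are the other C letters of the motif. The 6 in MDA-MB-468 had 17.5% (13.6 to 22.2) at the cytosine, 1.03% at +2 and 2.72% at +3. Low flanks are part of how a lone call was defined, so the contrast describes the sites and is no test. Over all members the motif cytosine (1.79% in MCF10A, 1.48% in MDA-MB-468) lay close to the sum of the cytosines within 10 nt (1.75% and 1.54%), but the positions differed. In MCF10A the cytosine was above those at -1 (1.56%, 1.49 to 1.63) and +2 (1.35%, 1.31 to 1.39), near that at +3 (1.73%, 1.69 to 1.77) and below that at -10 (2.17%). In MDA-MB-468 it was above -1 (1.29%, 1.22 to 1.37) and +2 (1.26%, 1.22 to 1.3), below +3 (1.58%, 1.54 to 1.63) and below -5 (2.21%).

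**Figure D2:**
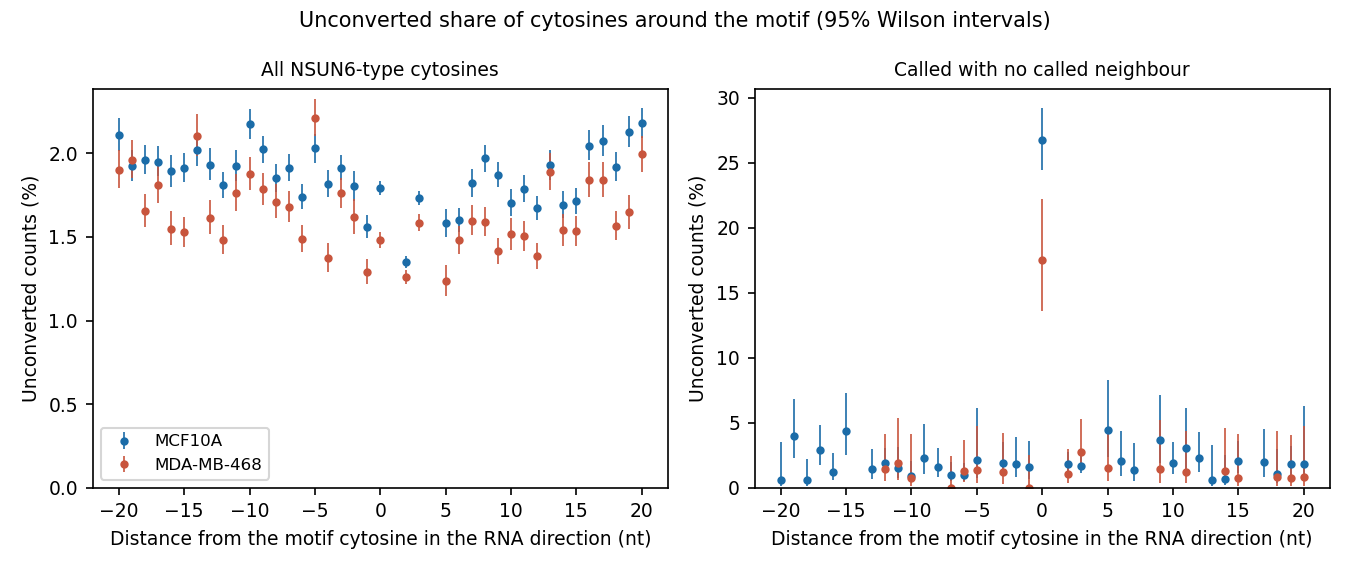
Unconverted counts (%) of exonic cytosines by distance from the motif cytosine in the RNA direction (nt), summed over all NSUN6-type cytosines (left) and over those called with no called neighbour (right), with 95% Wilson intervals. Distances with under 100 summed counts are left out. All members vary between 1.23% and 2.21% within 10 nt, with the value at 0 above those at -1 and +2 but below others, whereas the lone calls stand at 26.8% in MCF10A and 17.5% in MDA-MB-468 above neighbours near the background.

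Whether the motif cytosine exceeded the later cytosines of the same motif was then tested at each motif with at least 10 counts at all 3 cytosines, by a two-sided Fisher's exact test with Benjamini-Hochberg adjustment over every exonic site that has a cytosine at +2 and +3. In MCF10A the first cytosine was higher at 14 of 9518 members (0.147%, 0.0876 to 0.247), where 0.0714% of all 138610 such sites were called higher, and lower at 2 members (0.0210%), where 0.0577% of all were. Among all such sites other than the members the share called higher was 0.0658% (0.0533 to 0.0814), and at the motifs ending in C, G or T in place of A it was 3 of 10191, 1 of 5462 and 2 of 9897. MDA-MB-468 had 4 of 7476 members called higher (0.0535%, 0.0208 to 0.138), against 0.0445% of all 116965 sites, and 1 called lower, against 0.0316%. The motifs ending in C, G or T had 2 of 8627, 1 of 4565 and 3 of 7892 called higher in that line. The interval of the members thus lay above the share of the other sites in MCF10A and included it in MDA-MB-468, and the difference between members and other sites was not tested.

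Summed over the tested motifs, the first cytosine of the members had 1.79% (1.74 to 1.83) and the later ones 1.54% (1.51 to 1.57) in MCF10A, a gap of 0.248 percentage points, where the other tested motifs had a gap of 0.0898. At the motifs ending in C, G or T the gap was 0.178, 0.0683 and 0.339. In MDA-MB-468 the members had 1.47% (1.43 to 1.52) and 1.42% (1.39 to 1.45), a gap of 0.0544, and the other motifs 0.0761. The motifs ending in C, G or T had gaps of 0.194, 0.0714 and 0.258 in that line, all above that of the members. A gap larger than over the other motifs was thus seen in MCF10A, where the motif ending in T exceeded it, and these gaps were not tested.

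Of the 64 called members in MCF10A with both later cytosines covered, 11 were higher than these, none was lower and 53 could not be told apart from them. In MDA-MB-468 these counts were 4, 0 and 33 of 37. Most calls in this context thus came with later cytosines that were unconverted as well, or with too few counts to separate them.

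Among the lone sites, the smallest adjusted p after IGFBP6 belonged to RPSA, which codes for a protein of the small ribosomal subunit that also serves as a laminin receptor. The cytosine lies in the coding sequence at chr3:39450185-39450213 on the plus strand, at position 39450197. In MCF10A 37 of 52 counts were unconverted (71.2%, 57.7 to 81.7) and 0 of 88 at the later cytosines of the motif (adjusted p = 3.93e-18, Fisher's exact test). MDA-MB-468 showed 6 of 9 counts unconverted (66.7%, 35.4 to 87.9), below the coverage minimum, so no test was made there. The processed pseudogene RPSAP6 (chr10:76131514-76131542, plus strand) differs from RPSA at 1 of the 29 bases and had 14 of 21 unconverted (66.7%, 45.4 to 82.8) with 0 of 42 at the later cytosines. MDA-MB-468 held 2 of 8 unconverted counts there. Reads of RPSA and its pseudogene can be exchanged between the 2 places, so they are not independent sites.

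IGFBP6, a secreted protein that binds insulin-like growth factor II, held the deepest lone call. Its coding cytosine at chr12:53495890-53495918, plus strand, had 143 of 355 counts unconverted in MCF10A (40.3%, 35.3 to 45.5), against 4 of 681 (0.587%) at the later cytosines (adjusted p = 1.17e-65, Fisher's exact test). The site was not listed in MDA-MB-468, so no comparison between the lines could be made.

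NECTIN2, a cell adhesion molecule of the nectin family, had the highest ratio among the lone calls. At chr19:45375171-45375199 (plus strand, coding) 15 of 17 counts were unconverted in MCF10A (88.2%, 65.7 to 96.7) and 0 of 32 at the later cytosines (adjusted p = 2.72e-07, Fisher's exact test). MDA-MB-468 had 1 of 8 unconverted (12.5%, 2.24 to 47.1). Both intervals rest on few counts, and the difference was not tested because of the coverage in MDA-MB-468.

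FURIN and BAG6 were the 2 members that stood alone in both lines. FURIN codes for a proprotein convertase of the secretory pathway, and its 3′UTR cytosine (chr15:91425529-91425557, plus strand) had 13 of 16 counts unconverted in MCF10A (81.2%, 57.0 to 93.4) and 8 of 15 in MDA-MB-468 (53.3%, 30.1 to 75.2). Its later cytosines had 2 of 40 and 3 of 35 (adjusted p = 5.46e-05 and 0.876, Fisher's exact test). BAG6 codes for a chaperone that guards hydrophobic proteins in the cytosol, and its coding cytosine (chr6:31611895-31611923, minus strand) had 19 of 73 unconverted in MCF10A (26.0%, 17.3 to 37.1) and 13 of 135 in MDA-MB-468 (9.63%, 5.71 to 15.8). The later cytosines of BAG6 had 1 of 142 and 1 of 257, and the first was higher in each line (adjusted p = 7.36e-06 and 0.0104, Fisher's exact test). Neither gene differed between the libraries past the threshold (adjusted p = 1 for both, Fisher's exact test). FURIN falls outside the rule for named genes and was picked after its values were seen.

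Cytosines of other genes were also above their later cytosines, with or without called neighbours. Of the members both called and higher, a called cytosine within 10 nt was found beside 3 of 11 (MCF10A) and beside 2 of 4 (MDA-MB-468). KRT4, a type II keratin of stratified epithelia, was listed only in MDA-MB-468, with 17 of 71 unconverted (23.9%, 15.5 to 35) and 0 of 140 at the later cytosines (adjusted p = 8.50e-06, Fisher's exact test). PABPC1, the cytoplasmic poly(A)-binding protein, had 31 of 299 in MCF10A (10.4%, 7.40 to 14.3) with 6 of 594 later (adjusted p = 5.00e-07, Fisher's exact test), and 5 of 105 in MDA-MB-468 (4.76%, 2.05 to 10.7) with 7 of 208 later, called in the first line only. IRAK1, a kinase of interleukin-1 and Toll-like receptor signalling, had 14 of 68 in MCF10A (20.6%, 12.7 to 31.6) and 10 of 56 in MDA-MB-468 (17.9%, 10 to 29.8). Its later cytosines had 2 of 136 and 0 of 114, and the first was higher in both lines (adjusted p = 0.00577 and 0.0129, Fisher's exact test), although 2 of the 4 other cytosines within 10 nt were called too. LPCAT1, which remodels phospholipids, had 22 of 138 in MDA-MB-468 (15.9%, 10.8 to 23.0) with 2 of 278 later (adjusted p = 4.94e-06, Fisher's exact test), and 4 of 19 in MCF10A (21.1%, 8.51 to 43.3) with 1 of 38 later. It did not stand alone, since 6 of its 11 neighbours were called in each line, with 10.7% of their counts unconverted in MDA-MB-468 and 16.4% in MCF10A.

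Deep coverage also separated first from later cytosines where the ratio was at the background. Fibronectin, FN1, had 155 of 7745 counts unconverted in MCF10A at a coding member on chromosome 2 (2.0%, 1.71 to 2.34) against 155 of 16112 (0.962%) at the later cytosines (adjusted p = 4.11e-07, Fisher's exact test). In MDA-MB-468 1 of 13 counts was unconverted there. Another FN1 member with 39 of 1629 (2.39%) and one in the elongation factor gene EEF2 with 34 of 1395 (2.44%) were also higher than their later cytosines, at 0.691% and 0.523%. These 3 were not called m5C, and the second FN1 member and EEF2 were named after their values were seen. The members called lower than their later cytosines were PROCR (0 of 45 against 24 of 92) and CSNK1E (0 of 21 against 21 of 43) in MCF10A and NOTCH3 (1 of 135 against 68 of 254) in MDA-MB-468.

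**Figure D3:**
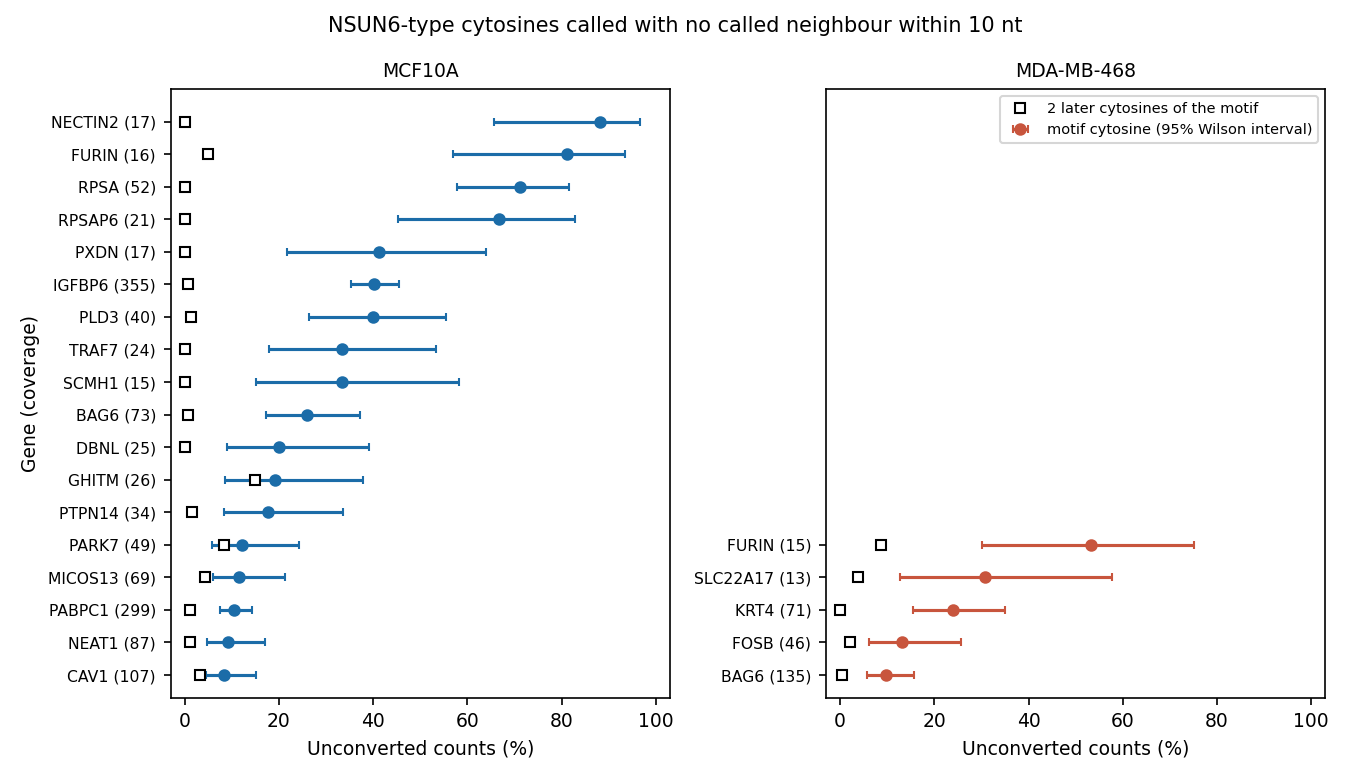
Unconverted counts (%) at the 18 members of MCF10A and 5 of the 6 of MDA-MB-468 that were called with no other called cytosine within 10 nt (filled circles with 95% Wilson intervals, coverage in brackets) and at the later cytosines of the same motif (open squares). NECTIN2, FURIN, RPSA and RPSAP6 stand above 60% in MCF10A with later cytosines at 0 to 5.00%, while at GHITM and PARK7 the later cytosines fall inside the interval of the first.

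Lone and clustered calls also differed in their share of coding sequence. The split depends on the covered cytosines within 10 nt, and whether their number differs between regions was not tested. In MCF10A 13 of the 18 lone calls were in coding sequence (72.2%, 49.1 to 87.5) and none in a 5′UTR, whereas the 49 clustered calls were 14 in coding sequence (28.6%, 17.8 to 42.4), 21 in 3′UTRs and 9 in 5′UTRs. MDA-MB-468 had 5 of 6 lone calls in coding sequence (83.3%, 43.6 to 97.0) and 8 of 32 clustered ones (25%, 13.3 to 42.1). The intervals of the 2 kinds of call did not overlap in either line. Outside the motif the same order was seen with a smaller gap, as 56.4% of the lone and 45.5% of the clustered calls of MCF10A lay in coding sequence and 53.5% and 47.1% of those of MDA-MB-468. Whether the members differed from the other cytosines in this was not tested. Coding sequence held 63.8% and 62.1% of all members, inside the interval of the lone calls and above that of the clustered calls in both lines.

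Pairing was predicted with ViennaRNA at 70 degrees in a transcript window of 150 nt to either side. A pairing probability over 0.5 was found at 6 of the 18 lone calls of MCF10A (33.3%, 16.3 to 56.3) and at 37 of the 49 clustered calls (75.5%, 61.9 to 85.4), with 59.0% (58.0 to 60.0) over all members. In MDA-MB-468 these were 3 of 6 (50%, 18.8 to 81.2), 24 of 32 (75%, 57.9 to 86.7) and 61.3%. The intervals of lone and clustered calls were apart in MCF10A and overlapped in MDA-MB-468. With folding at 37 degrees the gap shrank and the intervals overlapped in MCF10A, at 10 of 18 lone (55.6%, 33.7 to 75.4) and 36 of 49 clustered calls (73.5%, 59.7 to 83.8). In MDA-MB-468 the order turned at 37 degrees, with 5 of 6 lone (83.3%, 43.6 to 97.0) and 23 of 32 clustered calls (71.9%, 54.6 to 84.4). At the motifs ending in C, G or T together, 10 of 15 lone calls (66.7%, 41.7 to 84.8) and 125 of 175 clustered ones (71.4%, 64.3 to 77.6) were predicted as paired at 70 degrees in MCF10A. In MDA-MB-468 the order was reversed, at 6 of 8 lone (75%, 40.9 to 92.9) and 81 of 123 clustered calls (65.9%, 57.1 to 73.6). The interval of these lone calls overlaps that of the members' lone calls in each line, and the difference was not tested. Single lone calls of MCF10A ranged from 0.0053 (NECTIN2) to 0.995 at 70 degrees, with RPSA at 0.264 and PABPC1 at 0.698. At 37 degrees RPSA stood at 0.800. In MDA-MB-468 they ranged from 0.192 (FURIN) to 0.915, with KRT4 at 0.748.

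**Figure D4:**
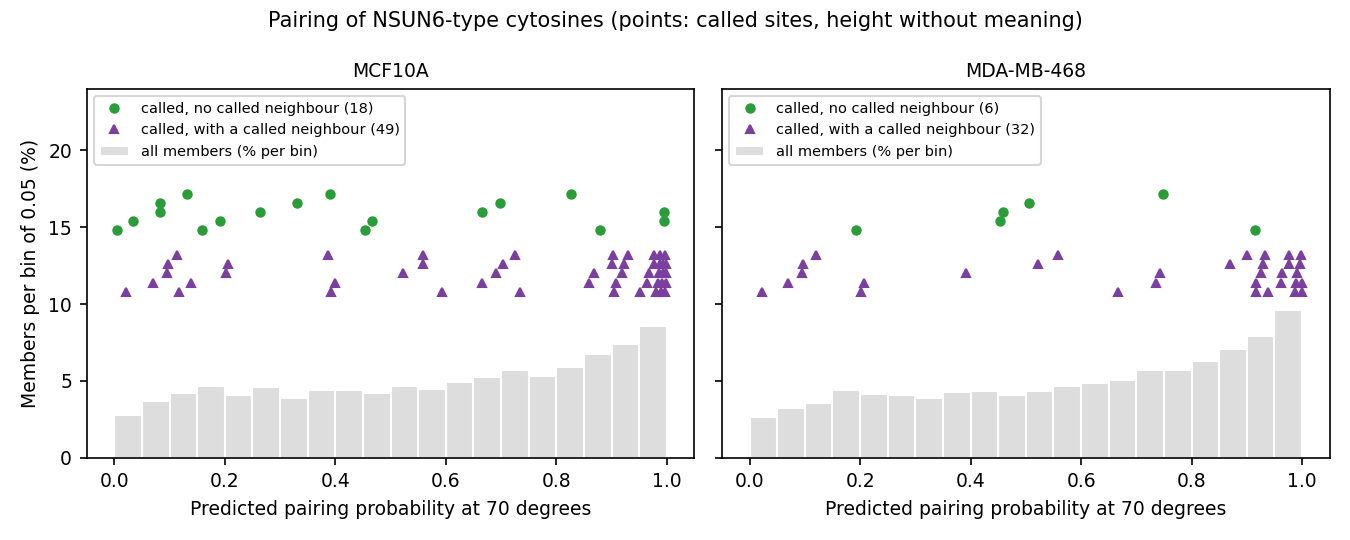
Predicted pairing probability of the motif cytosine at 70 degrees in each line. Grey bars give all members (% per bin of 0.05), green circles the called members with no called neighbour (18 and 6) and purple triangles those with one (49 and 32); the height of the points has no meaning. The triangles crowd near 1, whereas the circles spread over the range, with medians of 0.361 (MCF10A) and 0.483 (MDA-MB-468) for the circles and 0.903 and 0.916 for the triangles.

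By region, the members of 5′UTRs had the highest share called among the parts of messenger RNA, on 9 and 6 calls. The intervals of 5′UTRs and 3′UTRs overlapped in both lines. In MCF10A 9 of 768 were called in 5′UTRs (1.17%, 0.618 to 2.21), 27 of 6277 in coding sequence (0.430%, 0.296 to 0.625) and 24 of 2526 in 3′UTRs (0.950%, 0.639 to 1.41). Among cytosines outside the motif these shares were 2.25%, 0.616% and 0.836%, so the member share in 5′UTRs was lower, with the value of the other cytosines just above its interval. MDA-MB-468 had 6 of 511 (1.17%, 0.539 to 2.54), 13 of 4806 (0.270%, 0.158 to 0.462) and 17 of 2174 (0.782%, 0.489 to 1.25), beside 1.957%, 0.553% and 0.739%. All 9 and all 6 calls in 5′UTRs had a called neighbour, near the 92.1% and 91.4% of the 5′UTR calls outside the motif. The 3′UTR share of MDA-MB-468 rests on a small group: 18 of its 3′UTR members had repeat-type letters beside the motif, a set chosen after the calls were seen, and 8 of the 17 calls were among them. Without them 9 of 2156 were called (0.417%, 0.220 to 0.791), and in MCF10A 21 of 2491 (0.843%, 0.552 to 1.29). The set was picked with the calls known and was left out of the members only, so nothing is concluded from the fall. In MDA-MB-468 the intervals with and without it both include the 0.739% of the other cytosines. Over all regions 9 of the 38 calls of MDA-MB-468 and 4 of the 67 of MCF10A were in members with such letters.

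Clustered calls also lay in PAICS, MYADM and the transcript that overlaps RN7SL2, a gene of the signal recognition particle RNA. PAICS, an enzyme of purine synthesis, had 18 of 30 counts unconverted in MCF10A (60.0%, 42.3 to 75.4) and 11 of 25 in MDA-MB-468 (44%, 26.7 to 62.9), with 37 of 60 and 23 of 50 at the later cytosines. MYADM, a myeloid-associated membrane protein, had 18 of 23 (78.3%, 58.1 to 90.3) and 11 of 39 (28.2%, 16.5 to 43.8), a difference that missed the threshold (adjusted p = 0.175, Fisher's exact test). At RN7SL2 13 of 175 were unconverted in MCF10A (7.43%, 4.39 to 12.3) and 48 of 231 in MDA-MB-468 (20.8%, 16 to 26.5; adjusted p of the difference 0.196, Fisher's exact test). In MDA-MB-468 all 8 covered neighbours of PAICS, MYADM and RN7SL2 were called. Over all genes 13 of the 85 called members had another member whose 29-base window differed by at most 2 mismatches. The same share over all members is not given here, so the count is no trait of the calls. How reads shared by such copies were treated was not tested.

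TALAM1, a transcript antisense to the long noncoding RNA MALAT1, held the only member at 100% in both lines among those called in both, on counts whose strand is open to doubt. All 113 counts in MCF10A (96.7 to 100) and all 209 in MDA-MB-468 (98.2 to 100) were unconverted at chr11:65267096-65267124 on the minus strand. The later cytosines were fully unconverted as well, at 226 of 226 and 418 of 418. Over the exon, all 22 covered cytosines in MCF10A and all 23 in MDA-MB-468 were called, with 99.4% of the counts unconverted in both lines. These cytosines all lay between positions 65267066 and 65267132 of the exon. The opposite strand of the same exon, that of MALAT1, had 477435 counts with 1.68% unconverted in MCF10A and 673286 with 1.40% in MDA-MB-468, beside 2036 and 3813 on the minus strand. A read of a plus-strand RNA set to the minus strand would show each of its G letters as an unconverted cytosine, and whether the minus-strand counts are reads of MALAT1 was not tested, so the 100% cannot be read as methylation of TALAM1. The exon holds 1 member, but its 209 counts are enough to move the class: without the exon, the members of MDA-MB-468 lay 0.36 rather than 0.29 percentage points below the other cytosines.

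Other clustered calls were shared by both lines at moderate ratios. ANPEP, the membrane aminopeptidase N, had 94 of 339 (27.7%, 23.2 to 32.7) and 5 of 29 (17.2%, 7.60 to 34.5), with 376 of 980 and 32 of 94 at the later cytosines. AKT1, a kinase of growth factor signalling, had 10 of 31 (32.3%, 18.6 to 49.9) and 10 of 50 (20%, 11.2 to 33.0) in its 5′UTR. SAT1, which acetylates polyamines, had 7 of 41 (17.1%, 8.53 to 31.3) and 6 of 34 (17.6%, 8.35 to 33.5). None of these 3 differed between the libraries past the threshold, and none was above its later cytosines. NORAD, a long noncoding RNA that binds Pumilio proteins, had 32 of 105 (30.5%, 22.5 to 39.8) in MCF10A with 68 of 214 later and 2 of 8 in MDA-MB-468.

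Over both lines 85 members of 77 genes were called. Of the 67 of MCF10A, 20 were called in MDA-MB-468 as well, 23 were covered there but not called, 15 had under 10 counts and 9 were not listed. Of the 38 of MDA-MB-468, 20 were shared, 9 covered and not called, 3 under 10 counts and 6 not listed. Among the 4832 members covered in both lines, the 20 shared calls were 46.5% of the 43 calls in MCF10A and 69.0% of the 29 in MDA-MB-468, and for all exonic cytosines these shares were 48.2% and 63.0%.

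**Figure D5:**
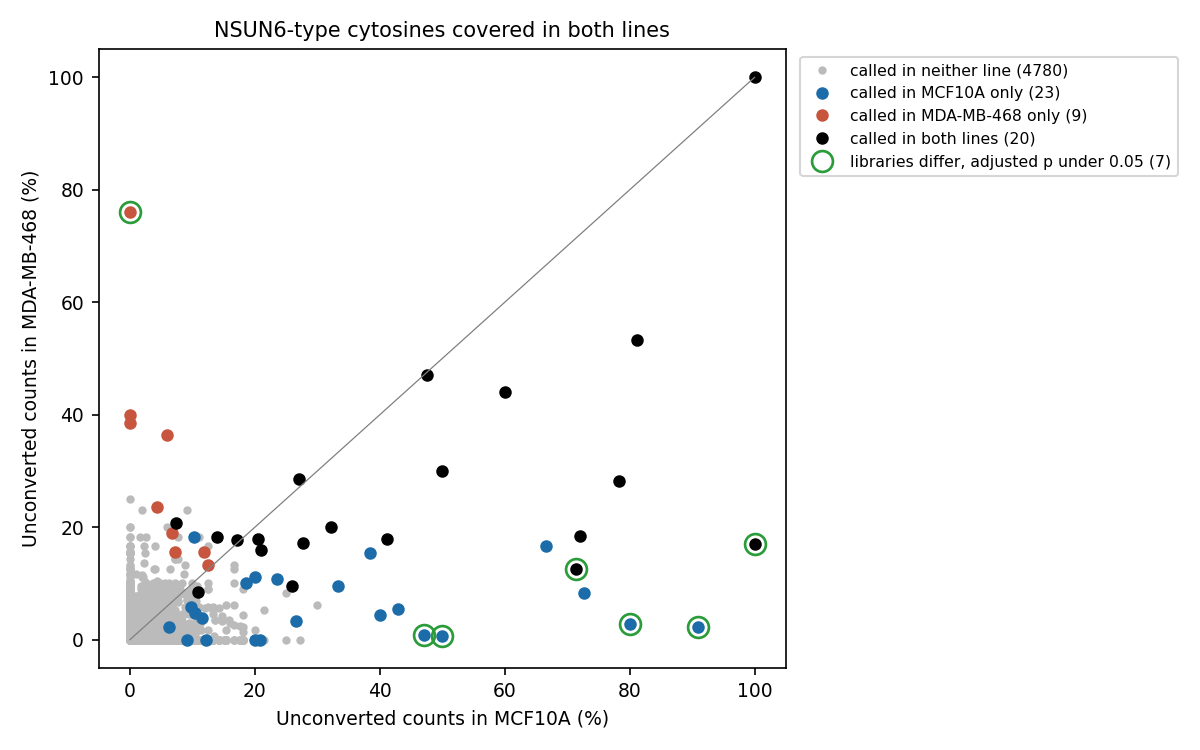
Unconverted counts (%) in MCF10A (horizontal) and MDA-MB-468 (vertical) at the 4832 NSUN6-type cytosines with at least 10 counts in both lines, coloured by the line of the m5C call, with the line of equal values. Green rings mark the 7 members that differed between the libraries, 6 of them far below the line and CNN2 at 0% and 76.0%.

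A two-sided Fisher's exact test between the libraries, adjusted over all kept sites covered in both, found 6 members higher in MCF10A, where 0.0653% of all exonic cytosines were, and 1 higher in MDA-MB-468, where 0.0153% were. SEC61G, the small subunit of the protein translocation channel of the endoplasmic reticulum, had 20 of 28 counts unconverted in MCF10A (71.4%, 52.9 to 84.7) and 22 of 174 in MDA-MB-468 (12.6%, 8.50 to 18.4) at its coding member (chr7:54825215-54825243, minus strand; adjusted p = 9.41e-07, Fisher's exact test). Its later cytosines moved alike, at 40 of 56 and 40 of 332. A SEC61G member in the 5′UTR had 18 of 25 and 7 of 38 (72.0%, 52.4 to 85.7, and 18.4%, 9.22 to 33.4), just short of the threshold (adjusted p = 0.0521, Fisher's exact test). CNN2, the actin-binding calponin 2, had 0 of 20 in MCF10A (0 to 16.1%) and 19 of 25 in MDA-MB-468 (76.0%, 56.6 to 88.5; adjusted p = 0.000159, Fisher's exact test) in its 3′UTR. At CNN2 too, the later cytosines were at 0 of 34 and 32 of 42.

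The other 5 members that differed had 10 to 17 counts in MCF10A, fall outside the rule for named genes and were picked after their values were seen. CASP14, a caspase of keratinocyte differentiation, had 10 of 11 against 6 of 270 in its 5′UTR and 10 of 10 against 9 of 53 in its 3′UTR. IFI27, an interferon-induced gene, had 8 of 10 against 19 of 693 and 6 of 12 against 14 of 2019. IFITM1, an interferon-induced membrane protein, had 8 of 17 against 2 of 229. In each case the gene was covered more deeply in MDA-MB-468, and the ratio was higher in the line with fewer counts. That held for SEC61G as well; the part of coverage in these differences was not tested. None of the 7 members stood alone. The later cytosines had 95.5% in MCF10A against 8.93% in MDA-MB-468 at the CASP14 3′UTR member. They had 80% against 1.79% and 50% against 0.586% at the IFI27 members, and 37.9% against 1.66% at IFITM1. At the CASP14 5′UTR member they could not be compared, for want of coverage in MCF10A. Differences at the neighbours were not tested.

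The base before the motif was C at 46.3% of the called members of MCF10A and at 33.6% of all members there, but at 28.9% against 34.6% in MDA-MB-468. G followed the motif at 46.3% and 50% of the called members and at 41.3% and 42.7% of all members.

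Among 10 genes that write or read RNA m5C (NOP2, NSUN2, NSUN3, NSUN4, NSUN5, NSUN6, NSUN7, TRDMT1, ALYREF and YBX1), 6 members in MCF10A and 5 in MDA-MB-468 were covered, all in NOP2, NSUN2 and YBX1, and none was called. Their summed counts were 6 unconverted of 251 and 5 of 156. NSUN6 itself was listed at 14 cytosines with 104 counts in MCF10A and at 3 cytosines with 18 counts in MDA-MB-468, none with 10 counts, so its own members could not be measured.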

How the data were processed

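Poly(A)-selected RNA of 1 MCF10A and 1 MDA-MB-468 library was treated with bisulfite at 60 degrees for 8 hours. For each listed cytosine the authors deposited 2 columns of counts, reads with an unconverted (m5C) and with a converted (NakedC) cytosine. According to the methods, reads were trimmed with Trim Galore and aligned and called with MeRanGs and MeRanCall of MeRanTK on hg19, with a base quality of 30 and a duplication level of at most 10; the submitters' processing notes name Trim Galore, Bismark and hg19. The lowest listed coverage was 5, so no coverage minimum of 10 had been applied to the deposited counts; whether sites had been filtered on structure was not tested. All nuclear positions fell on a cytosine of their strand in GRCh37.

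Sites with at least 10 counts on exons of GENCODE 44 (lifted to GRCh37) basic transcripts were kept, with mitochondrial sites in the background and in the adjustment only. A site on several regions was counted as 5′UTR before coding sequence before 3′UTR. Calls used one-sided Fisher's exact tests against the summed counts of all kept sites. The first cytosine against the later ones and the lines against each other used two-sided Fisher's exact tests. All were adjusted by Benjamini-Hochberg over the whole table at 0.05. The self-written tests were tested on simulated data. Pairing was predicted with ViennaRNA 2.7.2 at 70 degrees with a maximum distance of 150 nt. Python 3.11.15, scipy 1.17.1, pandas 2.3.3, numpy 2.4.6, pysam 0.24.0 and matplotlib 3.10.9 were used. QNB, the test named in the methods for differences, was not run here.

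Genes named in the text were those with the 12 highest ratios over both lines among members called in both at a coverage of at least 20, the 5 of highest coverage in each line with a ratio of at least 20%, up to 5 with the smallest adjusted p between the lines at a coverage of at least 20, up to 5 in each line with the smallest adjusted p of first against later cytosines, and the 10 writer and reader genes. Some genes and windows are not reported here. The members and lists were chosen with earlier results of these data known. No sequence of chromosome 8 is shown. The marker PECAM1 was not analysed here.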

Additional observations from a re-analysis of the deposited data

Results flagged for a closer look

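Cytosines in the CTCCA context outside annotated exons entered no comparison of the report and carried unconverted counts. In MCF10A 997 of 33195 counts were unconverted at 430 such sites with at least 10 counts (3.0%, 2.83 to 3.19) and 3.45% at all other sites outside exons. In MDA-MB-468 2592 of 157259 counts were unconverted at 1610 sites (1.65%, 1.59 to 1.71) and 2.20% at the others. At a coverage of at least 20, 7 of 123 and 4 of 352 of these sites had a ratio of at least 20%. Among the other sites outside exons these were 661 of 17953 and 1003 of 57215. By this measure the context lay above the others in MCF10A and below them in MDA-MB-468. By the unconverted share of counts it lay below the other cytosines in both lines, as inside exons. No test between the sets was made.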

How the results depend on the processing

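Of 58 recomputed values, 38 kept their direction and stayed within 1.5 times the reported count or within the interval, and none changed sign. The 67 calls of MCF10A became 43 at a coverage of at least 20, 18 with no other called site within 10 nt and 24 without sites of a pairing probability over 0.5. The 38 calls of MDA-MB-468 became 61 at a coverage of at least 5, 22 at a ratio of at least 20%, 6 with no called neighbour and 11 without paired sites. First cytosines called higher fell from 14 to 9 in MCF10A against the cytosine at +3 alone and from 4 to 2 in MDA-MB-468 against that at +2 or +3 alone; those called lower went from 2 to 0 in MCF10A (+2 alone) and from 1 to 2 in MDA-MB-468 (+3 alone). The members of MDA-MB-468 lay -0.29 percentage points from the other cytosines, -0.21 without the 1% of highest coverage and -0.36 without the TALAM1 exon; leaving out this exon or members picked by their flanking letters was chosen after seeing the data. By lone calls the rank in MCF10A moved from 72 to 36. At 37 degrees 73.3% and 74.7% of members were predicted as paired, rather than 59.0% and 61.3%. Members higher in MCF10A went from 6 to 2 at a coverage of at least 20 and to 15 when only sites called in at least 1 line were adjusted together, where those higher in MDA-MB-468 went from 1 to 3. The cause of these shifts, beyond the sites each setting removes or adds, was not tested. Calls of named members held in 129 of 130 recomputations. No paired analysis was possible because each line has 1 library. At the median coverage of 18, ratios below about 20% could not be called.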
